A study of Mus musculus with 12 samples.

Results

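The pentose phosphate pathway and cytosolic NADPH supply were followed in mouse liver through 7 genes, found by symbol among the 55487 genes of the count and TPM tables: G6pdx, Pgls, Pgd, Tkt, Taldo1, Rpia and Idh1. The rule goes by function and uses no measured value, though the set was chosen with earlier results of these data known. Livers came from male mice of 16 to 18 months on an ad libitum diet, in 4 groups of 3 animals' samples. The groups were Foxo3 flox/flox mice positive for Alb-cre, which expresses Cre recombinase from the albumin promoter and so deletes Foxo3 in hepatocytes, after an overnight fast or fed, and Cre-negative Foxo3 floxed controls after an overnight fast or fed. Both genotypes carried floxed Foxo3, and the Cre transgene was present in the knockouts alone, so an effect of Cre itself and of the deletion cannot be told apart. The question the groups pose for these genes is how an overnight fast changes them, and whether hepatocyte Foxo3, a forkhead transcription factor, alters their level or their response to the fast.

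The pathway begins with glucose 6-phosphate. Its oxidative arm runs from glucose-6-phosphate dehydrogenase (G6pdx) through 6-phosphogluconolactonase (Pgls) to 6-phosphogluconate dehydrogenase (Pgd), and the dehydrogenase steps each reduce NADP to NADPH. The non-oxidative arm converts the resulting pentose phosphates into one another and back to glycolytic sugars, through ribose 5-phosphate isomerase (Rpia), transketolase (Tkt) and transaldolase (Taldo1). Cytosolic isocitrate dehydrogenase (Idh1) and malic enzyme (Me1) make NADPH outside the pathway. In the liver NADPH is spent on fatty acid and sterol synthesis and on the reduction of glutathione and thioredoxin, and the oxidative dehydrogenases are known in rodents for falling activity during starvation and rising activity on carbohydrate refeeding.

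Proximal promoter sequence is shown for Pgd, Rpia and Idh1, because these are the members whose transcript levels separated all fasted from all fed livers. The share of all tested genes that separate the livers in this way was not computed. A short stretch is shown for G6pdx, because it held a match to the antioxidant response element core. The sequences are the RefSeq promoter windows of build GRCm38.p6, the assembly that mm10 names, and all 7 members matched a window. Letters run 5′ to 3′ on the strand of the gene, and capitals mark matches to the searched motifs. The Pgd stretch is chr4:149166772-149166955, from 250 to 67 bases before the first transcribed base. The Rpia stretch is chr6:70792233-70792425, from 250 to 58 bases before it. The Idh1 stretch is chr1:65186501-65186682, from 203 to 22 bases before it. These are the longest runs in the first window of each gene that lie in no annotated exon. Pgd and Idh1 each have a second window, with exon-free runs of 250 and 211 bases, which is not shown. The G6pdx stretch is chrX:74428919-74428947, from 67 to 39 bases before the RefSeq start. All 250 bases of that G6pdx window lie in annotated GENCODE exons, counted without regard to gene or strand. By its coordinates this stretch is inside the gene as the files place it (chrX:74409483-74429194). All 3 of the longer stretches and this one are on the minus strand.
Pgd: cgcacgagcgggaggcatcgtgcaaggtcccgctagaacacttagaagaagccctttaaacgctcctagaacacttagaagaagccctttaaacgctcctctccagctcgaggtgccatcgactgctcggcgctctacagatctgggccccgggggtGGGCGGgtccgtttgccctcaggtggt
Rpia: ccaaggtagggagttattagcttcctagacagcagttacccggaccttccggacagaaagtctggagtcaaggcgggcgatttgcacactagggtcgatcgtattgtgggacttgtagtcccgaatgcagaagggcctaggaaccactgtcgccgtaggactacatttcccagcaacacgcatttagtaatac
Idh1: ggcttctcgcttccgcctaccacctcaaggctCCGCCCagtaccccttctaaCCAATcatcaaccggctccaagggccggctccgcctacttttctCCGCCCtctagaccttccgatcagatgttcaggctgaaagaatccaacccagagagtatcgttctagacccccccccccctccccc
G6pdx: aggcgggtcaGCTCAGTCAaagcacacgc

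The motifs were searched on both strands of the 250 bases before each start. In the printed stretches the capitals are GC boxes (GGGCGG or its complement) in Pgd and Idh1, a CCAAT box in Idh1, and in G6pdx the reverse complement of the antioxidant response element core TGACNNNGC. That core lay 57 to 49 bases before the RefSeq start of G6pdx, within an annotated exon, and in no window of another member, and 10.2% of all 32851 windows held it. CCAAT boxes lay in windows of Pgd, Taldo1 and Idh1 (33.8% of all windows), and a GC box lay in a window of each of the 7 members (32.7% of all windows). These shares are per window and not per gene, and Pgd and Idh1 have 2 windows each. No member window held the E-box CACGTG (6.02% of all windows), the sterol regulatory element TCACNCCAC (1.05%) or the forkhead motif GTAAACA (3.17%). The full carbohydrate response element CACGTGNNNNNCACGTG was in none of the windows. A match describes letters in a window, and a missing match says only that these letters are not there.

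Library totals ranged from 17520058 to 22414976 counts, and 15862 genes, all 7 members among them, passed the filter on low counts. Levels in CPM, counts scaled to library size, are given after trimmed mean of M values (TMM) scaling, and comparisons are log2 fold changes from edgeR's quasi-likelihood test with Benjamini-Hochberg adjustment over the 15862 genes and a threshold of 0.05. The labels do not say how animals were assigned or processed, so p-values set differences only against the spread between these samples within groups. In whole tissue, fewer cells of a type and less RNA per cell cannot be told apart. Of the 8 hepatocyte markers none was at 0 in any library, and their sum was 81394 to 107029 CPM in fasted knockout livers, 92387 to 112220 CPM in fed knockout livers, 69258 to 117159 CPM in fasted control livers and 70713 to 120852 CPM in fed control livers. Foxo3 itself was not lower in livers labelled knockout: it was at 46.6, 53.6 and 53.4 CPM in fasted knockout livers, against 44.3, 39.9 and 38.1 CPM in fasted controls. The fed knockout livers held 59.4, 58.8 and 62.2 CPM, against 45.5, 44.5 and 50.4 CPM in fed controls. Each knockout library lay above each control in both states (log2 0.33 fasted, edgeR adjusted p = 0.45, and 0.36 fed, adjusted p = 0.68). Averaged over both states the Foxo3 difference was 0.34, at an adjusted p of 0.25 by edgeR and of 0.0039 by DESeq2, which called it higher in livers labelled knockout. A count over the whole gene does not show whether a floxed exon was removed, so it does not check the genotype, and knockout below is the label.

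Per transcript length, the members held the same order in every liver, apart from Pgls and Pgd. Idh1 was the most abundant (mean 360 TPM over the 12 libraries, 269 to 436 TPM), then Taldo1 (104 TPM, 89.2 to 152 TPM) and Tkt (41.3 TPM, 27.2 to 72.7 TPM). Pgls (20.2 TPM, 16.7 to 25.9 TPM) and Pgd (16.8 TPM, 9.87 to 41.0 TPM) came next, followed by G6pdx (7.72 TPM, 5.66 to 10.6 TPM) and Rpia (1.94 TPM, 0.97 to 3.52 TPM). Each neighbour in this order was above the next in 12 of 12 libraries, except Pgls and Pgd. Pgls was above Pgd in 7 of 12 libraries, which were the 6 fasted ones and fed control replicate 2. The pathway's entry enzyme thus had less transcript per length than the enzymes after it, apart from Rpia. Rpia rested on 41 to 147 counts per library, the fewest of the members.

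**Figure D1:**
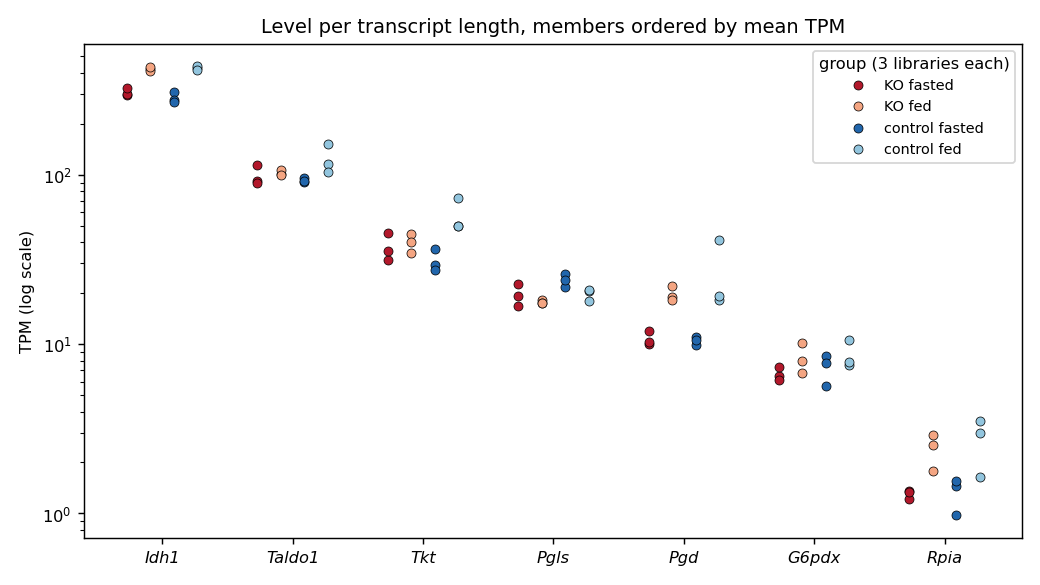
Levels of the 7 members in each of the 12 livers, in TPM on a log axis, ordered by mean. Idh1 lies highest at 269 to 436 TPM and Rpia lowest at 0.97 to 3.52 TPM. Pgls lies above Pgd in every fasted liver and in fed control replicate 2, and below it in the other fed livers.

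The overnight fast lowered several of these transcripts. Averaged over both genotypes, Pgd, Rpia, Idh1 and Tkt fell, and G6pdx, Pgls and Taldo1 did not pass the threshold. The members past the threshold were 4 of 7, beside 9.07% of all tested genes in either direction, 4.52% lower and 4.55% higher. In control livers alone 4 of 7 fell (Pgd, Tkt, Rpia and Idh1), beside 4.14% of all genes in either direction and 2.09% lower. In knockout livers alone 1 of 7 fell (Pgd), beside 2.48% in either direction and 1.12% lower. The median log2 fold change of the 7 members was -0.32 in knockout livers, -0.56 in control livers and -0.47 over both, while that of all tested genes lay between -0.01 and 0.00. Pgls was the 1 member with a positive estimate in each of these 3 comparisons. DESeq2 called 3 members lower in knockout livers (2.55% of all genes), 5 in controls (4.07%) and 5 over both (6.26%). Fasted livers lay wholly below fed ones for 3 of 7 members in knockouts (11.8% of all genes) and for 5 of 7 in controls (10.9%). For the stricter separation of all fasted from all fed livers, given below for Pgd, Rpia and Idh1, the share of all genes was not computed.

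**Figure D2:**
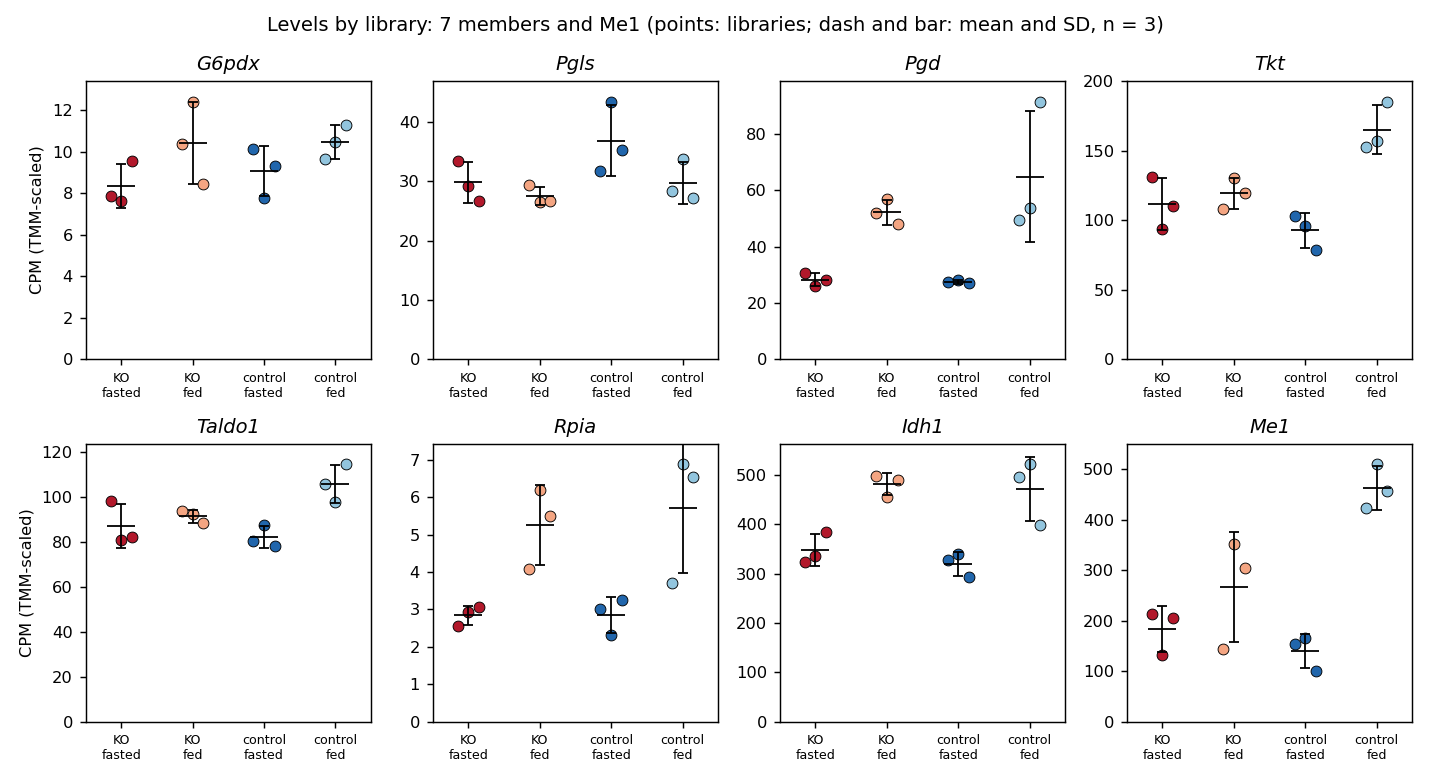
CPM of the 7 members and Me1 in each liver, with mean and SD (n = 3 per group) and axes starting at 0. The 6 fasted livers lie below the 6 fed livers for Pgd, Rpia and Idh1, and fed control replicate 3 stands high for Pgd at 91.6 CPM.

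In the oxidative arm Pgd fell, and G6pdx and Pgls did not pass the threshold. G6pdx, the entry enzyme, lies on the X chromosome (chrX:74409483-74429194, minus strand, mm10). It was at 7.87, 7.64 and 9.56 CPM in fasted knockout livers, against 10.4, 12.4 and 8.45 CPM in fed knockout livers, and at 10.1, 7.75 and 9.32 CPM in fasted controls, against 9.64, 10.5 and 11.3 CPM in fed controls. Fasted and fed livers overlapped in both genotypes. The log2 fold change was -0.32 in knockout livers (95% interval -0.68 to 0.04, edgeR adjusted p = 0.41) and -0.21 in controls (-0.56 to 0.15, adjusted p = 0.53). G6pd2, the copy of G6pdx that lacks introns, had 1 count in fed knockout replicate 2 and 0 in the other libraries.

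Pgls hydrolyses the lactone that G6pdx makes (chr8:71592176-71601092, plus strand, mm10). Its levels were 33.5, 29.2 and 26.7 CPM in fasted knockout livers, against 29.3, 26.4 and 26.8 CPM in fed knockout livers. In controls they were 31.7, 43.4 and 35.4 CPM after the fast, against 28.4, 33.7 and 27.1 CPM in fed livers. The groups overlapped in each genotype, with the highest value in fasted control replicate 2. The log2 fold change was 0.12 in knockout livers (95% interval -0.17 to 0.40, edgeR adjusted p = 0.75) and 0.31 in controls (0.03 to 0.59, adjusted p = 0.21).

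Pgd, the NADPH-producing dehydrogenase that forms ribulose 5-phosphate (chr4:149149991-149166771, minus strand, mm10), moved most. It was at 30.5, 26.0 and 28.1 CPM in fasted knockout livers, against 51.8, 56.8 and 48.0 CPM in fed knockout livers. It was at 27.5, 28.3 and 26.9 CPM in fasted controls, against 49.3, 53.8 and 91.6 CPM in fed controls. The 6 fasted livers lay within 26.0 to 30.5 CPM and the 6 fed livers within 48.0 to 91.6 CPM, with no overlap. Pgd was 1.85-fold lower after the fast in knockout livers (log2 -0.89, SE 0.19, edgeR adjusted p = 0.029) and 2.36-fold lower in controls (log2 -1.24, SE 0.19, adjusted p = 0.0045). Over both genotypes the log2 fold change was -1.06 (SE 0.13, edgeR adjusted p = 0.00054). In knockout livers the adjusted p was 0.0585 to 0.109 without each of the 3 fasted and 3 fed knockout libraries, at log2 fold changes of -0.95 to -0.82. With limma on log2(TPM + 1) and log2(TPM + 0.1) it was 0.129 and 0.12.

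Fed control replicate 3 carried the highest Pgd level, 1.78 times the mean of the other fed controls. Idh1 there was 0.783 times and Tkt 1.20 times that mean, all in CPM. In TPM, Idh1 there was at 415, against 428 and 436 in the other fed controls. Pgd was at 41.0 TPM there, against 18.3 and 19.3 TPM, and Tkt at 72.7 TPM, against 49.7 and 49.5 TPM. The same library held the highest sums of several non-hepatocyte marker lists. Its 8 stellate cell and fibrosis markers summed to 629 CPM, against 229 and 270 CPM in the other fed controls, its 10 infiltrating macrophage markers to 257 CPM, against 136 and 151 CPM, and its 7 proliferation markers to 69.1 CPM, against 36.0 and 36.4 CPM. None of these markers was at 0 in that library, and its hepatocyte marker sum was 70713 CPM, the lowest of its group. Without this library Pgd was still lower in fasted controls, with a log2 fold change of -0.91 (edgeR adjusted p = 0.00068), so the Pgd call does not rest on it. The part of these other cell types in the size of the Pgd difference was not tested.

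Within the oxidative arm, the ratio of Pgd to G6pdx in TPM was 1.40 to 1.85 in fasted knockout livers, against 2.18 to 2.71 in fed knockout livers, and 1.30 to 1.74 in fasted controls, against 2.45 to 3.87 in fed controls. Fasted and fed ratios did not overlap in either genotype. Neither did Pgd alone, so this is not a result apart from the fall of Pgd. The ratio of Pgls to Pgd was 1.63 to 1.92 in fasted knockout livers, against 0.796 to 0.967 in fed knockout livers, and 1.97 to 2.63 in fasted controls, against 0.506 to 1.07 in fed controls. Thus the lactonase transcript exceeded that of the following dehydrogenase in each fasted liver. The summed TPM of the arm was 34.3 to 41.1 TPM in fasted knockout livers, against 42.5 to 49.7 TPM in fed knockout livers, and 41.3 to 42.2 TPM in fasted controls, against 43.7 to 72.4 TPM in fed controls.

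In the non-oxidative arm, Tkt, which moves carbon units between sugar phosphates (chr14:30548359-30574720, plus strand, mm10), fell in controls. It was at 103, 96.1 and 78.6 CPM in fasted controls, against 153, 157 and 185 CPM in fed controls, with no overlap. In knockout livers it was at 131, 93.6 and 110 CPM after the fast, against 108, 130 and 119 CPM in the fed state. There the groups overlapped throughout, and fasted knockout replicate 1 was the highest of the 6 knockout libraries. Tkt was 1.78-fold lower in fasted controls (log2 -0.84, SE 0.14, edgeR adjusted p = 0.0077). In knockout livers the log2 fold change was -0.10 (95% interval -0.40 to 0.21, adjusted p = 0.83), and with single libraries left out it ranged from -0.22 to 0.02. Over both genotypes it was -0.47 (edgeR adjusted p = 0.012).

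Taldo1, the other enzyme that shuttles carbon between sugar phosphates (chr7:141392199-141402968, plus strand, mm10), varied least. It was at 98.1, 80.6 and 82.1 CPM in fasted knockout livers, against 93.5, 92.1 and 88.1 CPM in fed knockout livers. In controls it was at 80.4, 87.4 and 78.0 CPM after the fast, against 105, 97.5 and 114 CPM in fed livers. The control groups did not overlap and the knockout groups did. The log2 fold change was -0.37 in controls (95% interval -0.59 to -0.15, edgeR adjusted p = 0.064, DESeq2 adjusted p = 0.012) and -0.07 in knockout livers (-0.29 to 0.15, edgeR adjusted p = 0.83).

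Rpia, which converts ribulose 5-phosphate to the ribose 5-phosphate of nucleotides (chr6:70765720-70792232, minus strand, mm10), was the scarcest member. It was at 2.57, 2.92 and 3.05 CPM in fasted knockout livers, against 4.08, 6.18 and 5.49 CPM in fed knockout livers. It was at 3.02, 2.32 and 3.25 CPM in fasted controls, against 3.70, 6.87 and 6.54 CPM in fed controls. The 6 fasted livers all lay below the 6 fed livers, with replicate 1 the lowest of each fed group. Over both genotypes Rpia was 1.91-fold lower after the fast (log2 -0.94, SE 0.18, edgeR adjusted p = 0.0063), which held in 21 of 21 alternative fits. Within controls the log2 fold change was -0.99 (adjusted p = 0.047), and within knockout livers -0.88 (edgeR adjusted p = 0.10, DESeq2 adjusted p = 0.040). The control call passed in 6 of 22 alternative fits. It was lost without any of the knockout libraries other than fed replicate 1, without any fasted control, and without fed control replicate 2 or 3, at adjusted p of 0.0573 to 0.164. It was also lost with upper-quartile factors, limma-voom, limma on log2 TPM with either pseudocount, only the groups compared and a replicate block, at adjusted p of 0.0526 to 0.147.

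The ratio of Tkt to Taldo1 in TPM was 0.343 to 0.396 in fasted knockout livers, against 0.341 to 0.418 in fed knockout livers. In controls it was 0.297 to 0.378 after the fast, against 0.428 to 0.478 in fed livers, which do not overlap. The summed TPM of the 3 non-oxidative members was 125 to 161 TPM in fasted knockout livers, against 138 to 154 TPM in fed knockout livers, and 120 to 134 TPM in fasted controls, against 157 to 228 TPM in fed controls. The sums overlapped between fasted and fed knockout livers and not between fasted and fed controls. The share of other gene pairs or sums that separate was not computed.

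Idh1, the NADP-dependent isocitrate dehydrogenase of cytosol and peroxisomes (chr1:65158616-65186500, minus strand, mm10), was lower in every fasted liver than in every fed one. It was at 323, 336 and 384 CPM in fasted knockout livers, against 498, 456 and 490 CPM in fed knockout livers. It was at 328, 339 and 292 CPM in fasted controls, against 497, 521 and 399 CPM in fed controls. The closest values were fasted knockout replicate 3 and fed control replicate 3, and they did not cross. Over both genotypes Idh1 was 1.43-fold lower after the fast (log2 -0.52, SE 0.09, edgeR adjusted p = 0.0036), in 21 of 21 alternative fits as well. In controls the log2 fold change was -0.56 (edgeR adjusted p = 0.027), and in knockout livers -0.47 (edgeR adjusted p = 0.080, DESeq2 adjusted p = 0.0089). The control call was lost without any fasted control or without fed control replicate 1 or 2, at adjusted p of 0.0633 to 0.107. It was also lost when edgeR was fitted to only the groups compared (adjusted p = 0.116) and with a replicate block (adjusted p = 0.0614). The knockout difference passed without fed control replicate 3 (edgeR adjusted p = 0.0322) and with limma on log2(TPM + 1) or log2(TPM + 0.1) (adjusted p = 0.018 and 0.0177).

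**Figure D3:**
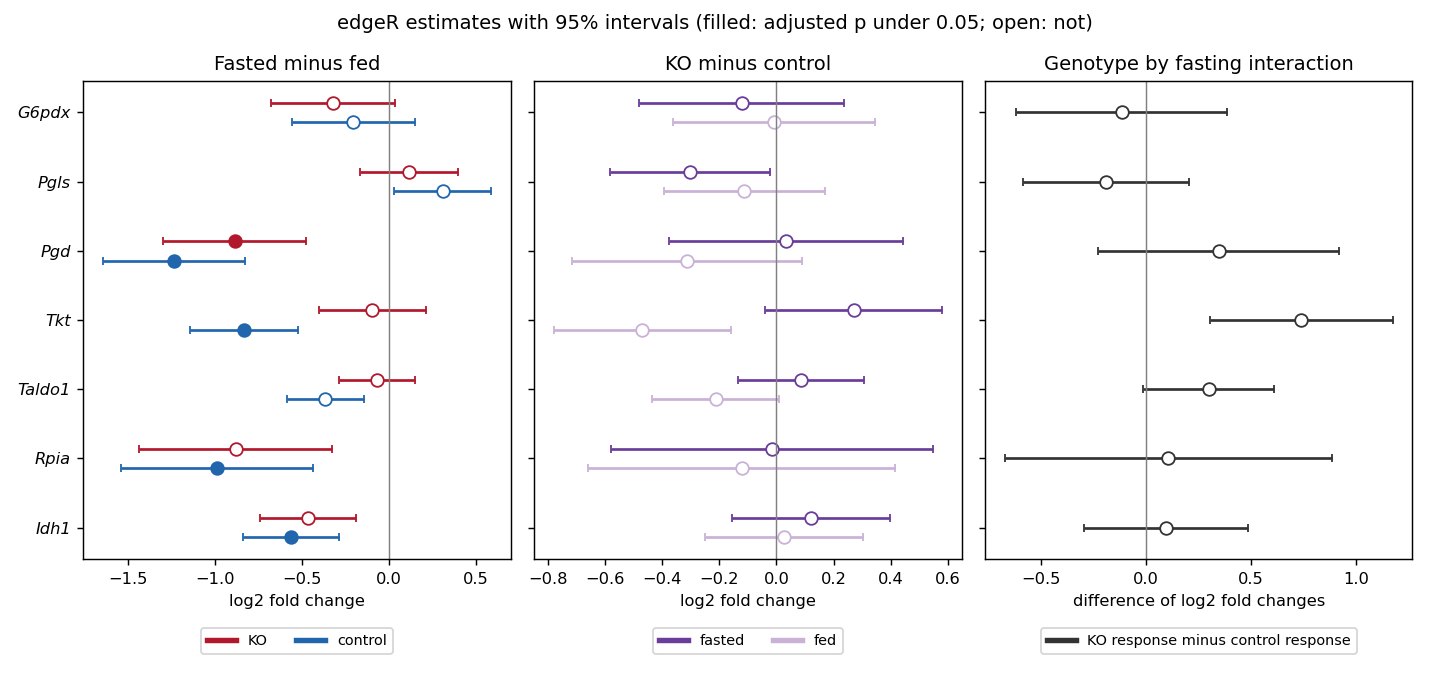
Log2 fold changes of the 7 members with 95% intervals from edgeR, for fasted minus fed in each genotype, knockout minus control in each feeding state, and the difference between the genotypes' responses. Filled points have an adjusted p under 0.05: Pgd in knockout livers and Pgd, Tkt, Rpia and Idh1 in controls, all lower after the fast.

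By genotype, no member passed the threshold in either feeding state, beside 0% of all tested genes in fed livers and 0.0315% in fasted livers. Of all genes in fed livers, edgeR called 0 and DESeq2 called 31 (0.195%). An edgeR unadjusted p below 0.05 was met by 970 genes, 6.12% of those tested. The member furthest from 0 was Tkt in fed livers, at 108, 130 and 119 CPM in knockout livers, against 153, 157 and 185 CPM in controls. Each fed knockout liver lay below each fed control. The log2 fold change was -0.47 (95% interval -0.78 to -0.16, edgeR unadjusted p = 0.0060, adjusted p = 0.76, DESeq2 adjusted p = 0.26). Taldo1 also separated the fed groups (log2 -0.21, 95% interval -0.43 to 0.01, edgeR adjusted p = 0.81). Non-overlap in this direction was met by 2 of 7 members, Tkt and Taldo1, and by 5.99% of all tested genes.

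The other members' genotype differences in fed livers had these 95% intervals on the log2 scale: G6pdx -0.36 to 0.35, Pgls -0.39 to 0.17, Pgd -0.72 to 0.09, Rpia -0.66 to 0.42 and Idh1 -0.25 to 0.30. In fasted livers no member separated the genotypes. The intervals there were -0.48 to 0.24 for G6pdx, -0.58 to -0.02 for Pgls, -0.38 to 0.44 for Pgd, -0.04 to 0.58 for Tkt, -0.14 to 0.31 for Taldo1, -0.58 to 0.55 for Rpia and -0.16 to 0.40 for Idh1. Pgls had the smallest p among members in fasted livers (log2 -0.30, edgeR unadjusted p = 0.036, adjusted p = 0.53). Averaged over both states no member passed, beside 0.0126% of all genes, and the estimates ran from -0.21 for Pgls to 0.07 for Idh1.

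The test of whether the fast acted differently in the genotypes gave 0 of 7 members past the threshold, beside 0.0063% of all genes. Tkt had the largest estimate, a log2 response in knockout livers 0.74 above that in controls (SE 0.20, 95% interval 0.30 to 1.18). Its unadjusted p ranked 81 of 15862 genes (edgeR unadjusted p = 0.0029, adjusted p = 0.55, DESeq2 adjusted p = 0.10). Without each library in turn the estimate lay between 0.61 and 0.85. Pgd followed at 0.35 (95% interval -0.23 to 0.92, edgeR adjusted p = 0.84) and then Taldo1 at 0.30 (-0.01 to 0.61, adjusted p = 0.71). The fall of Tkt in controls and its absence of a call in knockout livers is therefore not shown to be a difference between genotypes.

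Me1, cytosolic malic enzyme and another source of NADPH for lipogenesis, had values side by side with these. It was at 214, 132 and 205 CPM in fasted knockout livers, against 144, 352 and 305 CPM in fed knockout livers, and at 153, 166 and 101 CPM in fasted controls, against 423, 510 and 457 CPM in fed controls. The control groups lay far apart and the knockout groups overlapped, with fed knockout replicate 1 near the fasted livers. Me1 was 3.31-fold lower in fasted controls (log2 -1.73, SE 0.31, edgeR adjusted p = 0.013), a call lost without fasted control replicate 3 (adjusted p = 0.0534). In knockout livers the log2 fold change was -0.54 (95% interval -1.21 to 0.13, edgeR adjusted p = 0.46). Between fed genotypes it was -0.79 with no overlap (edgeR adjusted p = 0.81), and the difference of the fasting responses was 1.19 (SE 0.43, adjusted p = 0.62). The ratio of Idh1 to Me1 in TPM was 2.1 to 3.54 in fasted knockout livers, against 1.80 to 4.80 in fed knockout livers, and 2.84 to 4.01 in fasted controls, against 1.21 to 1.63 in fed controls.

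Library by library, the members' spread differed. The SD of log2 CPM over the 12 livers was 0.58 for Pgd, 0.49 for Rpia, 0.35 for Tkt, 0.30 for Idh1, 0.21 for G6pdx and for Pgls, and 0.17 for Taldo1. Likeness between genes was measured as the root mean square difference of log2(CPM + 0.5) over the 12 libraries after each gene was centred on its own mean, so that smaller means more alike. Of the member pairs, Tkt and Taldo1 were closest (0.20), and Pgd and Pgls were furthest apart (0.68). Pgd was nearest to Rpia among the members (0.28). The 12 libraries share the fasting split, so these values describe the 4 groups as much as the genes.

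**Figure D4:**
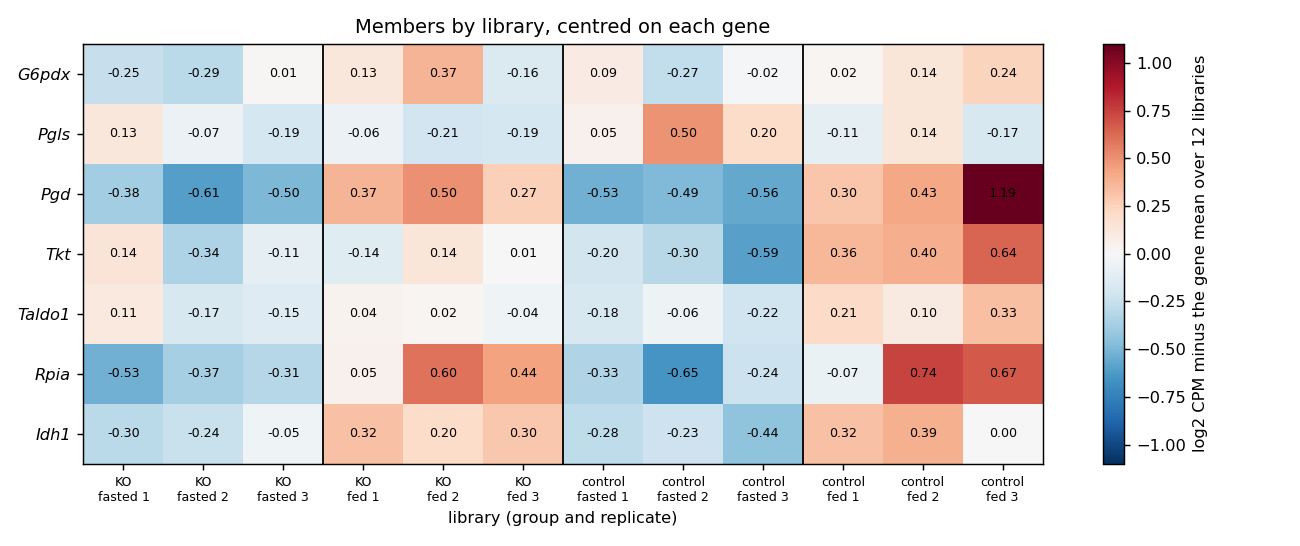
Log2 CPM of each member in each liver minus the gene's mean over the 12 livers, with red above and blue below that mean. Pgd and Rpia are below their means in the 6 fasted livers, Tkt is highest in the 3 fed controls, Taldo1 is highest in fed control replicate 3, and Pgls is highest in fasted control replicate 2.

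Among 9409 genes of at least 5 CPM, the pattern nearest to Pgd was that of Gpam, the glycerol-phosphate acyltransferase that starts glycerolipid synthesis (0.19), followed by Tgfbr2 and Synj2. Nearest to Tkt were Pgrmc2 (0.12), Cs, which is citrate synthase, and Slc22a15. Nearest to Taldo1 were Prdx3, a mitochondrial peroxiredoxin (0.067), Tmem135 and Hsd17b12. Rpia was nearest to Atg16l2 (0.20), Papss1 and Birc3, Idh1 to Haao (0.10), Stim2 and Iws1, G6pdx to H2az1 (0.098), Klc1 and Rnpep, and Pgls to Txn2 (0.093), BC003965 and Timm23. The median distance to all compared genes was 0.59 for Pgd and 0.25 for Taldo1, so small distances come more easily to a gene that varies little.

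Of 15 further genes of pentose phosphate and ribose phosphate metabolism, 11 were tested. Over both genotypes 0 rose and 1 fell, beside 4.55% and 4.52% of all tested genes. The gene that fell was Rpe, the epimerase that makes xylulose 5-phosphate, at 24.5 ± 1.52 CPM in fasted and 29.6 ± 1.54 CPM in fed knockout livers, and 21.9 ± 1.51 CPM in fasted and 25.8 ± 0.56 CPM in fed controls (SD, n = 3 each). Its log2 fold change was -0.26 (SE 0.06, edgeR adjusted p = 0.021), and without fasted knockout replicate 2, fed knockout replicate 2 or 3, or fasted control replicate 1 the adjusted p was 0.0512 to 0.0597. The Rpe call was also lost with no filter on low counts (adjusted p = 0.0588) and with limma on log2(TPM + 1) and log2(TPM + 0.1) (adjusted p = 0.0911 and 0.0903). H6pd, which carries out the first oxidative steps inside the endoplasmic reticulum, was at 325, 501 and 608 CPM in fasted knockout livers, against 414, 419 and 437 CPM in fed knockout livers. In controls it was at 421, 420 and 381 CPM after the fast, against 397, 330 and 311 CPM in fed livers. It did not pass any comparison (log2 0.20 after the fast over both genotypes, edgeR adjusted p = 0.38). Prps2, a ribose phosphate pyrophosphokinase (-0.34, adjusted p = 0.092), Tigar, a fructose bisphosphatase (-0.36, adjusted p = 0.093), and Shpk, sedoheptulokinase (-0.23, adjusted p = 0.15), did not pass over both genotypes.

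Of 11 other NADPH sources and NAD kinases 10 were tested. Over both genotypes 0 rose and 2 fell, beside 4.55% and 4.52% of all tested genes. The genes that fell were Me1 (log2 -1.13, edgeR adjusted p = 0.0085) and Aldh1l1, the cytosolic formyltetrahydrofolate dehydrogenase. Aldh1l1 was at 885 ± 143 CPM in fasted and 1420 ± 268 CPM in fed knockout livers, and 893 ± 130 CPM in fasted and 1178 ± 267 CPM in fed controls (SD, n = 3 each). Its log2 fold change was -0.54 (SE 0.14, edgeR adjusted p = 0.032), at an adjusted p of 0.0526 to 0.0814 without fasted knockout replicate 2 or 3, fed knockout replicate 1 or 3, fasted control replicate 1 or 3, or fed control replicate 2, and of 0.0676 with a replicate block. Idh2, the mitochondrial counterpart of Idh1, was at 124 ± 13.4 CPM in fasted and 98.7 ± 4.74 CPM in fed knockout livers, and 124 ± 14.8 CPM in fasted and 126 ± 22.0 CPM in fed controls (SD, n = 3 each). Its log2 fold change over both genotypes was 0.16 (edgeR adjusted p = 0.35). Knockout minus control in fed livers was -0.35 for Idh2 (edgeR adjusted p = 0.81). Aldh1l2, the mitochondrial form of Aldh1l1, stayed under 1 CPM (log2 -0.90, edgeR adjusted p = 0.14).

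Of 12 enzymes that spend NADPH on lipid and sterol synthesis, all were tested. Over both genotypes 0 rose and 4 fell, beside 4.55% and 4.52% of all tested genes. Those that fell included Fasn, Dhcr7 and Lbr. Fasn, fatty acid synthase, was at 170 ± 36.3 CPM in fasted and 1536 ± 431 CPM in fed knockout livers, and 192 ± 38.8 CPM in fasted and 1892 ± 653 CPM in fed controls (SD, n = 3 each). Its log2 fold change was -3.24 (SE 0.21, edgeR adjusted p = 8.0e-06). Dhcr7, which makes cholesterol from its last precursor, changed by -1.38 (edgeR adjusted p = 0.0073). Lbr, a sterol reductase of the nuclear envelope named after its values were seen, changed by -0.38 (adjusted p = 0.035). Hsd17b12, an elongation-cycle reductase, fell in controls (log2 -0.47, edgeR adjusted p = 0.029) and was at -0.04 in knockout livers (adjusted p = 0.91).

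Of 11 NADPH-using redox enzymes, all tested, 1 rose and 1 fell over both genotypes, beside 4.55% and 4.52% of all tested genes. Dcxr, which reduces xylulose and dicarbonyls, was at 96.5 ± 16.7 CPM in fasted and 78.0 ± 7.77 CPM in fed knockout livers, and 114 ± 13.2 CPM in fasted and 75.7 ± 13.7 CPM in fed controls (SD, n = 3 each). Its log2 fold change was 0.45 (edgeR adjusted p = 0.022), at an adjusted p of 0.0509 to 0.0603 without fasted knockout replicate 1, fed knockout replicate 2 or 3, or fasted control replicate 2. Ptgr1, which reduces leukotriene and prostaglandin metabolites, was at 1.23 ± 0.37 CPM in fasted and 3.37 ± 1.01 CPM in fed knockout livers, and 1.35 ± 0.26 CPM in fasted and 3.43 ± 0.34 CPM in fed controls (SD, n = 3 each). It fell by 1.39 on the log2 scale (edgeR adjusted p = 0.0012). Cryz, a quinone reductase (-0.02, adjusted p = 0.89), and Cbr1, a carbonyl reductase (0.31, adjusted p = 0.094), did not pass over both genotypes. The Cryz mean joins opposite directions: 128 ± 19.1 CPM in fasted and 108 ± 5.25 CPM in fed knockout livers, against 99.7 ± 0.72 CPM in fasted and 122 ± 12.1 CPM in fed controls (SD, n = 3 each). The difference of its fasting responses was 0.53 and did not pass (edgeR adjusted p = 0.55). Cbr1 passed in 1 of 21 alternative fits, without fed control replicate 3 (log2 0.41, edgeR adjusted p = 0.0091).

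Of 10 transcription factors known to act on lipogenic or antioxidant genes, all were tested. Over both genotypes 1 rose and 2 fell, beside 4.55% and 4.52% of all tested genes. Srebf1, which drives fatty acid synthesis genes, was at 156 ± 38.4 CPM in fasted and 706 ± 168 CPM in fed knockout livers, and 126 ± 60.7 CPM in fasted and 646 ± 169 CPM in fed controls (SD, n = 3 each). Its log2 fold change was -2.27 (SE 0.24, edgeR adjusted p = 0.00027). Mlxipl, the carbohydrate-responsive factor ChREBP, changed by -0.73 (SE 0.10, adjusted p = 0.0010). Nr1h3, the oxysterol receptor LXR alpha, changed by 0.27 (edgeR adjusted p = 0.024), at an adjusted p of 0.0523 to 0.071 without fasted knockout replicate 2, fed knockout replicate 3 or fasted control replicate 1. Nr1h2, its relative LXR beta, changed by 0.20 (adjusted p = 0.055) and passed in 4 of 21 alternative fits. Across these 5 lists no gene was called by edgeR between the genotypes or in the test of unequal response. The medians of the lists over both genotypes were -0.12 for further pathway genes, 0.05 for NADPH sources, -0.32 for lipid and sterol synthesis, 0.03 for redox enzymes and -0.01 for the factors, beside -0.01 for all tested genes.

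**Figure D5:**
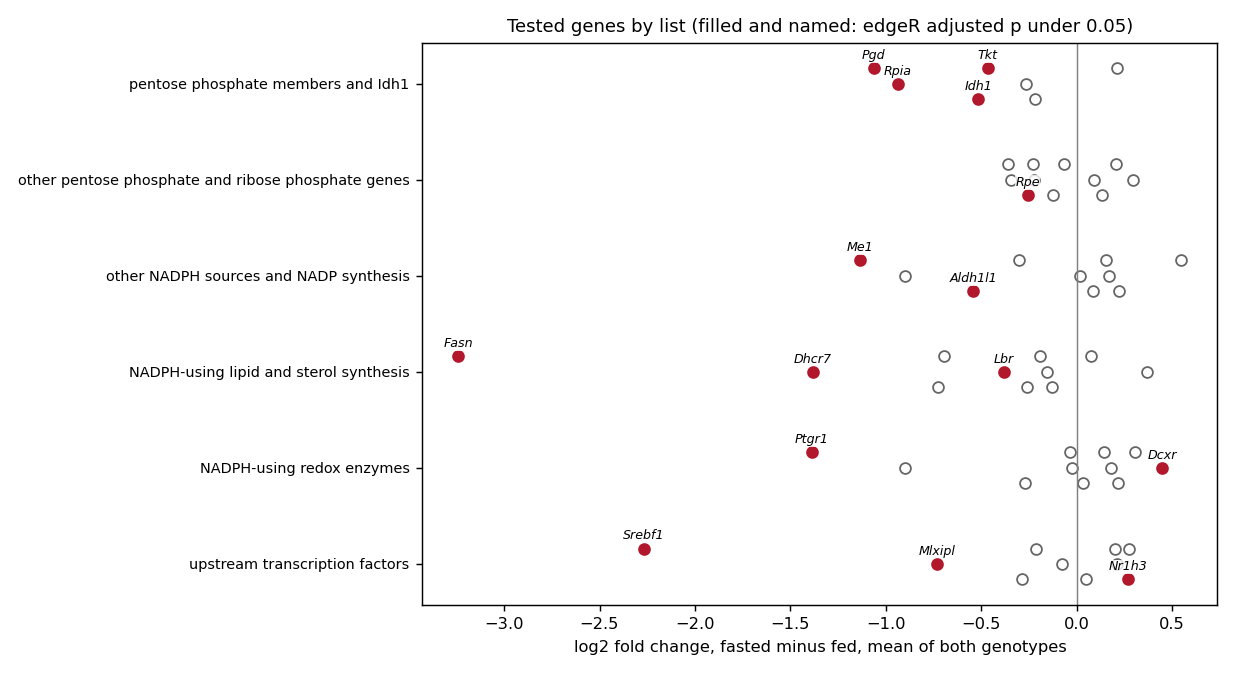
Log2 fold changes after the fast, averaged over both genotypes, for the members and 5 related gene lists. Each point is a gene, filled where the edgeR adjusted p is under 0.05, and a gene of the lipid and sterol list is not drawn. Fasn (-3.24) and Srebf1 (-2.27) lie furthest below 0.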

How the data were processed

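Whole frozen liver was extracted, and poly(A) RNA went into directional libraries, per the labels' protocols. The submitters' processing notes name build mm10 and, in no stated role, DESeq2 1.24.0, featureCounts 1.6.3, HISAT2 2.1.0, Trimmomatic 0.38 and bcl2fastq 2.19. Which annotation release was used, how multi-mapping reads were treated and which strand setting applied is not given in the sources used here. Raw gene counts were deposited by the authors, a column for each library. The authors also deposited TPM, which sum to 1000000 per library and equal the counts divided by 1 fixed length per gene (largest relative deviation 2.4e-08 over 8936 genes with at least 100 counts in each library). Reads shared with near-identical copies could be split by the counting.

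The main test was edgeR 4.0.16 (R 4.3.3) on the deposited counts, with filterByExpr, TMM factors and a robust quasi-likelihood fit of 4 group means over 12 libraries. It gave 7 contrasts, adjusted by Benjamini-Hochberg over 15862 genes. DESeq2 1.42.0, limma 3.58.1 (voom, and log2 TPM with a pseudocount of 1 or 0.1), other scalings and filters, fits of only the groups compared, a replicate block and each library left out were alternatives. All 12 columns were assigned by the library names in the labels. No batch is labelled, so day or cohort and group cannot be told apart. The edgeR fit was tested on simulated counts, with changes placed in fed knockout livers alone. The other fits, the likeness measure and the motif search were not tested in this way.

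The members and gene lists were chosen with earlier results of these data known. Named genes were all members, the 4 genes of each list with the smallest unadjusted p in any contrast, G6pd2, H6pd and Me1, and the 3 genes nearest in pattern to each member. A gene that this rule names is not reported here.

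Promoter windows are from the RefSeq table on GRCm38.p6. Exons are those of GENCODE M21, in which 98.73% of the genes in the files have the same coordinates. Counting error falls with counts, and Rpia, at 41 to 147 counts, is the least precise member.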

Additional observations from a re-analysis of the deposited data

How the results depend on the processing

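The fall of Pgd and Tkt in controls passed the threshold in 22 of 22 alternatives each, and the falls of Pgd, Rpia and Idh1 over both genotypes in 21 of 21. Tkt over both genotypes passed in 19 of 21, missing it with limma on log2(TPM + 1) and log2(TPM + 0.1) (adjusted p = 0.0521 and 0.0508). Taldo1 over both genotypes passed in 2 of 21 (DESeq2 and without fasted knockout replicate 1). No member passed between genotypes or in the interaction in any alternative.

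Counts of called genes moved as follows. Under DESeq2 they were 811 for the fast in knockout livers (3 members), 1199 for the fast in controls, 31 between genotypes when fed, 41 when fasted, 47 over both states and 62 for the interaction. Without the filter on low counts they were 5 between genotypes when fed, 13 when fasted, 4 over both states and 5 for the interaction. With limma-voom they were 2 between fasted genotypes and 1 over both states. On log2(TPM + 1) they were 3 between fasted genotypes and 1 over both states. On log2(TPM + 0.1) they were 4 between fed genotypes, 5 over both states and 3 for the interaction. With only the groups compared, they were 312 for the fast in controls (2 members), 1 between fed genotypes and 1 between fasted genotypes.

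Replicate numbers did not pair the samples: same-numbered deviations correlated between -0.324 and 0.165, and 2 of 12 libraries correlated best with their own number. With the replicate block, the fast in knockout livers had 232 genes called and 0 members (Pgd adjusted p = 0.057), the fast in controls 2 members, and the fasted genotypes 3 genes.

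With single libraries left out, calls ranged from 88 to 573 for the fast in knockout livers (0 to 2 members), 272 to 648 for the fast in controls (2 to 4 members), 0 to 1 between fed genotypes, 1 to 6 between fasted genotypes, 1 to 3 over both states and 1 to 3 for the interaction.

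Estimates near 0 changed sign. Knockout minus control for Idh1 when fed was -0.0114 in log2 TPM with either pseudocount, and for Rpia when fasted 0.0006 on log2(TPM + 0.1). With single libraries left out, knockout minus control ranged in fed livers from -0.1517 to 0.1149 for G6pdx, -0.0919 to 0.105 for Idh1, -0.4758 to 0.0072 for Pgd and -0.3527 to 0.0355 for Rpia. In fasted livers it ranged from -0.0289 to 0.0902 for Pgd, -0.1382 to 0.085 for Rpia and -0.0119 to 0.1385 for Taldo1, and over both states from -0.2207 to 0.0194 for Pgd and -0.1829 to 0.0111 for Rpia. The interaction ranged from -0.2388 to 0.0319 for G6pdx and -0.0488 to 0.3395 for Rpia, the fast in knockout livers from -0.2224 to 0.0176 for Tkt, and the fast over both genotypes from -0.0827 to 0.0232 for Cryz. The cause of these changes was not tested.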
